A study of Mus musculus with 20 samples.

Results

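The 31 genes described here make cholesterol and fatty acids or control their making, and they were taken by symbol from the gene tables of 3 single-cell experiments, each of which lists 27998 genes. By role, 18 belong to sterol synthesis from acetyl units to cholesterol, 4 to its regulation and transport (Insig1, Srebf1, Srebf2 and Stard4), and 9 to the synthesis, elongation and desaturation of fatty acids. All 31 symbols were found in each experiment. They were named by their known function and not by a threshold on measured values, but with earlier results of these data known. The UMI counts (counts of distinct captured RNA molecules) of these genes were summed over the cells of each treated population, and the populations were compared by the signals they had received.

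The cells were male mouse embryonic stem cells of the 129P2/OlaHsd strain, which form derivatives of all germ layers when allowed to differentiate. They were held for a time without the inhibitors of GSK3 and MEK that the stem cell medium contained, passed through serum-free and then low-serum medium, and were exposed for 24 h to combinations of signalling activators and inhibitors. Before harvest every population received its own set of short polyadenylated RNAs (barcodelets) by transfection, so that cells pooled into 1 library could be assigned to a population after sequencing. In the germ layer experiment, 32 populations received every combination of 5 signals, each at a plus or a minus level: retinoic acid against its receptor antagonist CD 2665 (RA), GSK3 inhibitor XV against IWR1 (Wnt), Activin A against A8301 (Tgfb), Bmp4 against Dorsomorphin (Bmp), and Fgf2 against UO126 (Fgf). A plus level is therefore an activator and a minus level an inhibitor, and with no vehicle population the activator's and the inhibitor's shares of a difference cannot be told apart.

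In the mesendoderm experiment all cells were first held for 24 h with Activin A, Fgf2, the GSK3 inhibitor XV, Dorsomorphin and CD 2665. They then received the same 5 signals and also Notch and Shh at plus or minus levels, in 384 wells that cover 128 combinations. In the mixed experiment 144 wells began from that mesendoderm start or from an undirected start without it, and then received combinations of the 5 signals or, in 8 control wells per start, no combination. The sources used here do not name the compound behind each level in the mesendoderm and mixed experiments. A bulk RNA-seq series of the same cell type compared cells 24 h and 72 h after barcodelet transfection with untransfected cells, with 2 libraries per group.

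Cholesterol is made in the endoplasmic reticulum from acetyl-CoA through mevalonate, farnesyl diphosphate, squalene and lanosterol, and the same acetyl-CoA feeds the making of long-chain fatty acids. The transcription factors SREBP1 and SREBP2, encoded by Srebf1 and Srebf2, are kept in the endoplasmic reticulum by SCAP and INSIG proteins while sterols are plentiful, and move to the Golgi and then the nucleus when sterols fall. SREBP2 chiefly acts on the sterol genes and SREBP1 on the fatty acid genes, so that many of these genes are known to move together in cultured cells. Cholesterol is also needed in the embryo for the covalent modification of Hedgehog proteins and as a membrane component.

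The sequences before the start of these genes are shown because SREBPs are known to act there together with the factors NF-Y and SP1. RefSeq windows of GRCm38.p6 were held for 24 of the 31 genes, with none used here for Fdps, Fdft1, Sqle, Stard4, Scd1, Scd2 and Fads1. In the 250 bases before the start, 4 motifs were searched on both strands: a sterol regulatory element written TCACNCCA, the NF-Y motif CCAAT, the SP1 motif GGGCGG, and the E-box CACGTG. A match is a description of the letters and not a bound site. TCACNCCA was present in 3 of 24 members (12.5%), namely Hmgcs1, Srebf2 and Msmo1, against 4.2% of 27025 genes with a window. CCAAT was present in 19 members (79.2%, against 37.5% of all genes) and GGGCGG in 20 members (83.3%, against 35.4%). CACGTG was present in 4 members, Hsd17b7, Sc5d, Dhcr7 and Insig1 (16.7%, against 6.86%). The windows of the 3 genes with TCACNCCA and of Insig1, the gene of the group that encodes the SREBP anchor and whose level varied with both Bmp and Wnt, are printed 5′ to 3′ on the gene's own strand. Capitals mark the 4 motifs on either strand (ATTGG and CCGCCC are CCAAT and GGGCGG read on the other strand), and no 2 of them overlap in these windows.
Hmgcs1, chr13:119690101-119690350, plus strand: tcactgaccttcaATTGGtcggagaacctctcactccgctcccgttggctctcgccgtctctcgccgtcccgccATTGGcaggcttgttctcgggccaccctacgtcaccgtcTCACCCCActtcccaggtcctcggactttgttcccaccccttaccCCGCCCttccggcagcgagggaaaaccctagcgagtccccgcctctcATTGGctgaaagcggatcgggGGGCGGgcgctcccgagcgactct
Srebf2, chr15:82147019-82147268, plus strand: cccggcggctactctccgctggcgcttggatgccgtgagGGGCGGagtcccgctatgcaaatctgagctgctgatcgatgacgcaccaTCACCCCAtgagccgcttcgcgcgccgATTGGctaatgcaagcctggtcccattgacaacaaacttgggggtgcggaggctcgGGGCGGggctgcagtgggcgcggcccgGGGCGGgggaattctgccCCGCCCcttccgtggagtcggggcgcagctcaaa
Msmo1, chr8:64733579-64733828, minus strand: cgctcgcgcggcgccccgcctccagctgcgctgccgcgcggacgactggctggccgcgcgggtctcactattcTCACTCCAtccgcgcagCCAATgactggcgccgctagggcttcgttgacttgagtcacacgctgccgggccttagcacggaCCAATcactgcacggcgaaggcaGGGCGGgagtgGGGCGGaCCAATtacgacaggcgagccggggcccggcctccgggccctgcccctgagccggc
Insig1, chr5:28071162-28071411, plus strand: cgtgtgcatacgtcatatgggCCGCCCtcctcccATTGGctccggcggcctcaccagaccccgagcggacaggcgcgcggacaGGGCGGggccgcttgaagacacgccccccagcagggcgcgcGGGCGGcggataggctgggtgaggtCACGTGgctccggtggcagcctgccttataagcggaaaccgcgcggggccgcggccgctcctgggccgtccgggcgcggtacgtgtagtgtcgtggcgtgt
The TCACNCCA match began 137 bases before the start in Hmgcs1, 162 bases before it in Srebf2 and 177 bases before it in Msmo1, each time on the strand of the gene. In Srebf2 and Msmo1 a CCAAT match followed the TCACNCCA match within the window, whereas in Hmgcs1 the nearest one downstream lay beyond a GGGCGG match. The Insig1 window held the E-box 101 bases before the start, 3 GGGCGG matches and a CCAAT match.

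Of the barcodes in each deposited matrix, 4350 of 8421 cells of the germ layer experiment, 2899 of 12781 of the mesendoderm experiment and 4869 of 5944 of the mixed experiment had passed the authors' assignment to a population and were summed. The germ layer populations held 70 to 230 cells and 991630 to 3816595 UMIs. The 300 mesendoderm wells with at least 5 cells held 5 to 29 cells and 27701 to 332644 UMIs, and the 142 such mixed wells held 5 to 97 cells and 101140 to 2119355 UMIs. The median depth per cell was 15314, 11700 and 19105 UMIs in the germ layer, mesendoderm and mixed experiments. The libraries of the experiments shared 64 to 151 cell barcodes in pairs, and 1 library was made per experiment, so no population can be compared across separate libraries of the same experiment. Levels are given as CPM, that is UMIs scaled to a common library size with TMM. In the germ layer populations the summed markers of surface ectoderm (Krt8, Krt18, Tfap2a, Gata3) ranged over 1062 to 2117 CPM at the Bmp plus level and 304.1 to 732.1 CPM at the minus level, and no marker gene of the 7 lists was at 0 in all populations.

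Precision differed by gene and by experiment. In the germ layer experiment 30 of the 31 members passed the filter on low counts (all but Acss2), in the mixed experiment 28 (all but Tm7sf2, Fads2 and Acss2), and in single mesendoderm wells 7, namely Hmgcs1, Sqle, Msmo1, Acat2, Scd2, Elovl6 and Acly. Over the germ layer cells the most counted members were Scd2, a stearoyl-CoA desaturase, with 15018 UMIs, Acat2, which joins acetyl-CoA units in the cytosol, with 8320 UMIs, and Hmgcs1, the synthase of HMG-CoA, with 7614 UMIs. The least counted were Tm7sf2, a sterol reductase, with 481 UMIs, Fads2, a fatty acid desaturase, with 330 UMIs, and Acss2, a cytosolic acetyl-CoA synthetase, with 140 UMIs. Reads at the 3′ end are counted without regard to length, so these totals say how well each gene was measured. Several members overlap another gene (Tm7sf2 and Vps51, Fdft1 and Ctsb, Cyp51 and Akap9, Srebf1 and Rai1, Acss2 with Ggt7 and Gss). Mvd (Gm20388) and Acaca (Gm11437) also overlap a gene listed as coding on the other strand. Fdps (Gm43738), Srebf2 (Gm49502) and Elovl6 (Gm43072) overlap a gene on their own strand. The sources used here do not say whether counting was by strand, so their counts may hold reads of the neighbour. Scd1 (chr19:44394455-44407879, minus strand, GRCm38) and Scd2 (chr19:44293674-44306864, plus strand) are paralogs, and reads that match both could be split between them.

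**Figure D1:**
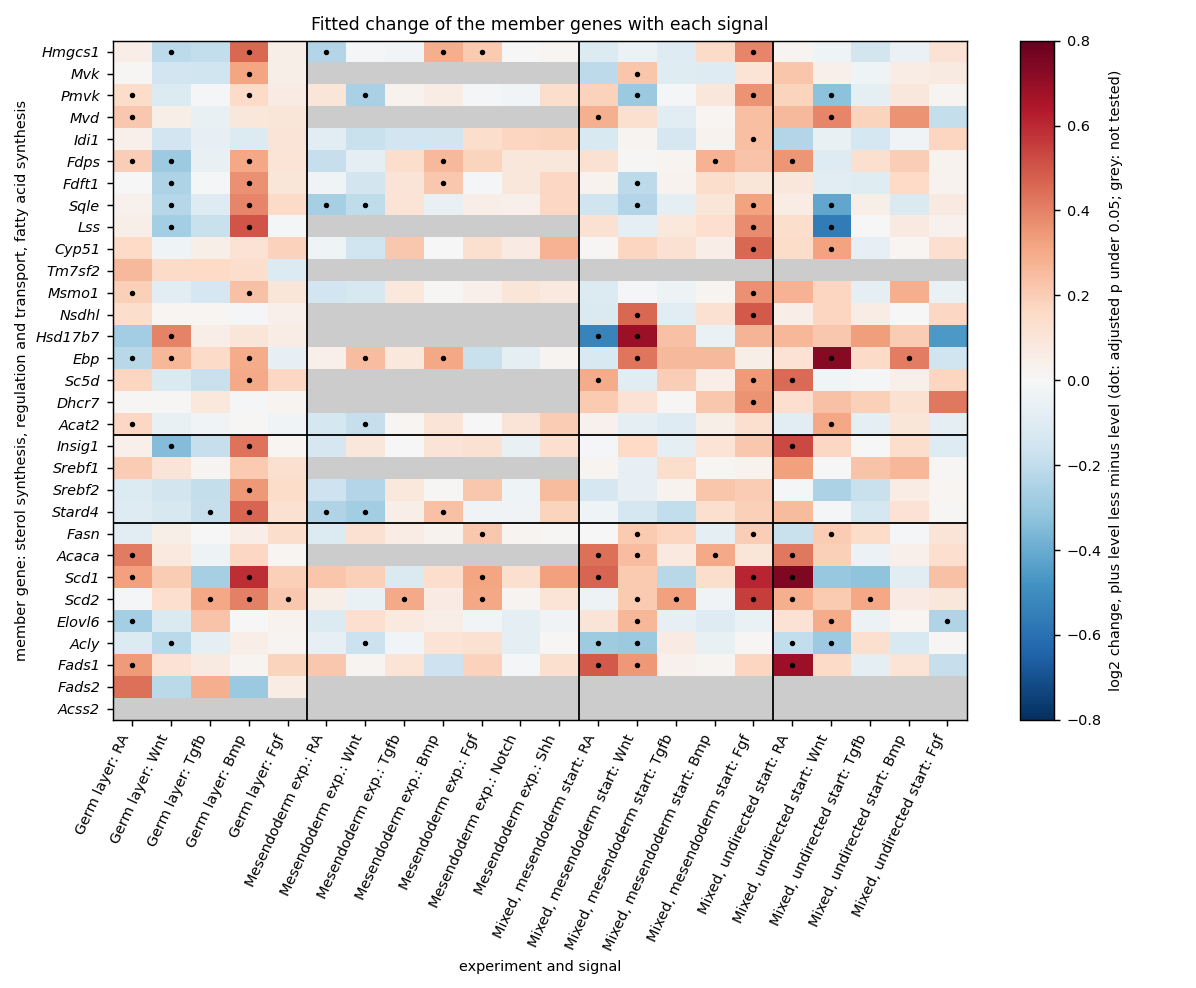
Heat map of the fitted log2 change (plus level less minus level) of each member, one line per gene grouped by role, in each experiment and signal. A dot marks an adjusted p under 0.05 and grey a gene that was not tested; the mesendoderm columns show the fit to wells summed per combination. The Bmp column of the germ layer experiment holds 15 dots, all for genes higher at the plus level, and the Fgf column of the mixed mesendoderm start holds 13, also all higher.

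The broadest change of the members in the germ layer experiment went with Bmp. With Bmp4 against Dorsomorphin 15 of the 30 tested members rose and 0 fell, where 21.6% of the 10614 genes tested rose and 21.5% fell (edgeR's quasi-likelihood test, Benjamini-Hochberg adjusted p under 0.05, 16 populations at each level). The members that rose were 10 of 18 sterol synthesis genes, 3 of 4 regulation and transport genes and 2 of the 8 fatty acid genes tested. The median log2 change of the tested members was 0.19, against 0.0037 over all genes. The changes of the 15 were moderate, from 0.15 for Pmvk to 0.59 for Scd1 on the log2 scale.

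Stard4, a soluble carrier that moves sterol between membranes, had the smallest adjusted p. Its lowest, median and highest levels were 37.8, 44.3 and 57.9 CPM in the 16 Bmp plus populations and 25.8, 32.3 and 40.5 CPM in the 16 Bmp minus populations. The groups overlapped only between 37.8 and 40.5 CPM, and Stard4 was higher at the plus level in 16 of 16 pairs of populations that differed in Bmp alone. The fitted log2 change was 0.46 ± 0.05 (SE, adjusted p = 5.18e-09). The 3 highest populations, at 50.7 to 57.9 CPM, all combined Bmp plus and Fgf plus with Tgfb minus.

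Sqle, squalene epoxidase and a rate-limiting step after squalene, had 86.1, 109 and 137 CPM as its lowest, median and highest level in Bmp plus populations, against 55.9, 82.6 and 107.5 CPM in Bmp minus populations. It was higher at the plus level in 16 of 16 such pairs (log2 change 0.39 ± 0.06, adjusted p = 5.53e-07). The groups overlapped over the middle of the range, and the 3 highest populations all combined Bmp plus with Wnt minus and Tgfb minus.

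Hmgcs1 had 93.0, 118.5 and 164.4 CPM in Bmp plus populations, against 67.1, 83.7 and 128.8 CPM in Bmp minus populations (log2 change 0.46 ± 0.07, adjusted p = 9.19e-07). It was higher in 15 of 16 pairs. Fdft1, squalene synthase, the first step committed to sterols, had 53.3, 70.0 and 93.4 CPM at the plus level and 43.1, 54.3 and 71.97 CPM at the minus level (log2 change 0.37 ± 0.06, adjusted p = 1.3e-05). It was likewise higher in 15 of 16 pairs, with groups that overlapped.

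The desaturases Scd2 and Scd1 introduce a double bond into saturated fatty acyl-CoA. Scd2 had 182.6, 226.1 and 289.0 CPM in Bmp plus populations, against 108.0, 169.6 and 267.1 CPM in Bmp minus populations (log2 change 0.40 ± 0.06, adjusted p = 3.13e-06). Scd1 had 20.7, 37.8 and 68.6 CPM at the plus level and 15.5, 25.1 and 34.5 CPM at the minus level (log2 change 0.59 ± 0.11, adjusted p = 7.86e-05). Both groups overlapped. The 3 highest Scd1 populations, at 53.6 to 68.6 CPM, were all RA plus, Tgfb minus and Bmp plus.

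**Figure D2:**
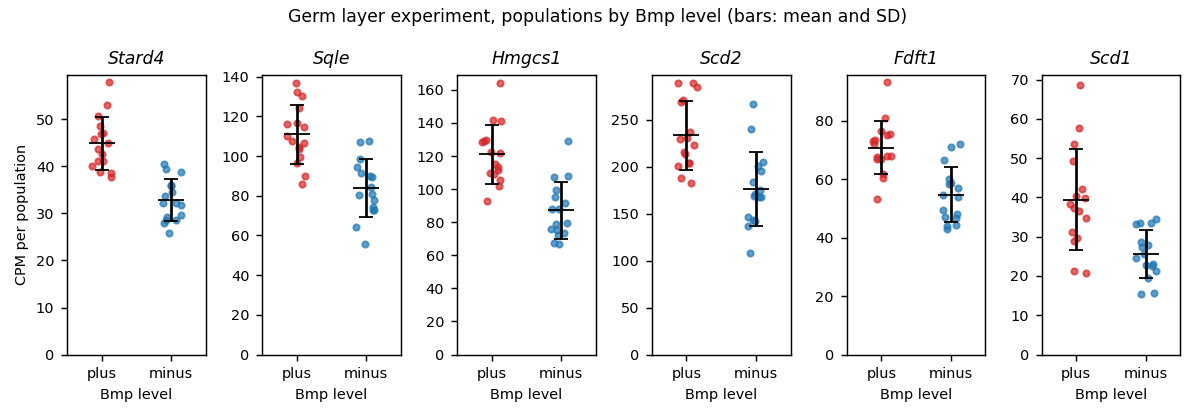
Levels in CPM of 6 members in the germ layer experiment, with 1 point per population, Bmp plus (left, 16 populations) and Bmp minus (right, 16 populations), and bars for the mean and SD. The Stard4 points of the plus level lie at 37.8 CPM and above, those of the minus level at 40.5 CPM and below.

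The other members that rose with Bmp filled in both ends of the sterol path. Of the mevalonate steps, Mvk (mevalonate kinase) rose by 0.32 ± 0.07, Pmvk (phosphomevalonate kinase) by 0.15 ± 0.05 and Fdps (farnesyl diphosphate synthase) by 0.31 ± 0.07 on the log2 scale. Of the steps after squalene, Lss (lanosterol synthase) rose by 0.51 ± 0.10, Msmo1 (which removes methyl groups from the sterol ring) by 0.24 ± 0.07, Ebp (sterol isomerase) by 0.29 ± 0.07 and Sc5d (sterol desaturase) by 0.31 ± 0.08. Of the regulators, Srebf2 rose by 0.35 ± 0.07 and Insig1 by 0.43 ± 0.09. In the main fit the sterol members called thus lay before and after squalene, and the gene of their main transcription factor was called too. With depth per cell as a covariate Hmgcs1, before squalene, and Sqle, after it, were still called. Which members of this paragraph were still called with that covariate, and whether Srebf2 was, is not given here.

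Not every enzyme of the path passed the test with Bmp. Idi1 (isopentenyl diphosphate isomerase) had a log2 change of -0.11 ± 0.06, Acat2 of 0.01 ± 0.04 and Dhcr7 (the last reductase of the path) of -0.02 ± 0.08, and Cyp51 (lanosterol demethylase) had 0.12 ± 0.07. Among fatty acid genes Fasn (fatty acid synthase) had 0.05 ± 0.05, Acly (ATP citrate lyase, a source of cytosolic acetyl-CoA) 0.05 ± 0.06 and Elovl6 (an elongase of long-chain acids) -0.01 ± 0.07. The desaturases Fads1 (0.02 ± 0.07) and Fads2 (-0.30 ± 0.19) did not pass the test either, so of the 4 desaturase genes only Scd1 and Scd2 were called with Bmp. Srebf1 had 0.21 ± 0.09 with an adjusted p of 0.0648.

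Summed over genes, the 18 sterol synthesis members averaged 1037 CPM (901 to 1151 CPM) in Bmp plus populations and 885.7 CPM (786.8 to 1116 CPM) in Bmp minus populations. Bmp plus populations also had deeper cells, with 17330 against 15850 mean UMIs per cell at the minus level. With the depth per cell as a covariate 11 members were still called, and the 6 named above with full values were called under each of 6 alternative analyses. The calls lost with that covariate were therefore among the risers given above by log2 change alone, and which ones is not given here. Nor is the share of all genes called with that covariate. Cell type markers moved with the same contrast. All 4 surface ectoderm markers rose. Of the lateral mesoderm markers (Hand1, Foxf1, Tbx3, Gata4) 3 were tested and 2 rose, with fitted log2 changes from -0.34 to 3.62. All 4 summed to 147.7 to 414.7 CPM at the plus level and 16.7 to 77.6 CPM at the minus level. All 3 tested neural markers and all 6 tested pluripotency markers fell, and the part of cell types in the members' change was not tested. In a summed population more cells of a type and more RNA per cell cannot be told apart.

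Genes outside the membership but of the same metabolism were counted from 5 fixed lists, of which 10 uptake, transport and efflux genes, 6 SREBP processing genes, 12 further fatty acid genes, 9 isoprenoid and sterol-responsive genes and 9 fatty acid oxidation genes were tested. With Bmp, 5 transport genes rose and 1 fell. Scarb1, a lipoprotein receptor, had a log2 change of 0.53 ± 0.09, Lipa, the lysosomal lipase that frees cholesterol from its esters, 0.57 ± 0.14, and Soat1, which esterifies cholesterol, 0.49 ± 0.07. Apoe, a lipoprotein component, fell by 0.43 ± 0.07. Of the processing genes Insig2 rose by 0.27 ± 0.08 and Rnf139 by 0.24 ± 0.08, and 0 of 6 fell. The further fatty acid genes were split, with 4 up, among them Acsl3 (acyl-CoA synthetase, 0.75 ± 0.08) and Elovl1 (elongase of very long acids, 0.73 ± 0.06), and 4 down. Of the oxidation genes 4 rose and 0 fell. Of the isoprenoid and sterol-responsive genes 1 rose and 2 fell, and their summed level averaged 713.9 CPM at the plus level and 710.9 CPM at the minus level. These counts stand against the 21.6% of all genes that rose and the 21.5% that fell.

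With RA against CD 2665, 8 members rose and 2 fell, where 14.1% of all genes rose and 13.6% fell. The genes that rose were mixed in role: 5 sterol genes and 3 fatty acid genes. Acaca (acetyl-CoA carboxylase, which commits acetyl-CoA to fatty acids) had 18.8, 22.6 and 28.3 CPM as lowest, median and highest level in RA plus populations, against 11.7, 17.3 and 24.0 CPM in RA minus populations (log2 change 0.42 ± 0.08, adjusted p = 0.000289). It was higher at the plus level in 14 of 16 matched pairs, and the groups overlapped. Fads1, a desaturase of polyunsaturated fatty acids, had 22.9, 30.6 and 36.2 CPM, against 16.9, 24.0 and 32.1 CPM at the minus level (log2 change 0.34 ± 0.07, adjusted p = 0.000344). Acat2 had 106.3, 122.6 and 132.0 CPM, against 99.6, 106.5 and 132.1 CPM (log2 change 0.16 ± 0.04, adjusted p = 0.00114). The Fads1 and Acat2 groups overlapped too, and Acat2 was higher in 14 of 16 pairs.

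Mvd, the decarboxylase that ends the mevalonate steps, had 31.2, 38.7 and 44.7 CPM in RA plus populations, against 27.4, 31.7 and 41.6 CPM in RA minus populations (log2 change 0.22 ± 0.06, adjusted p = 0.00575). The members that fell with RA were Elovl6, with 38.4, 53.9 and 78.4 CPM at the plus level and 53.5, 67.9 and 81.4 CPM at the minus level (log2 change -0.27 ± 0.07, adjusted p = 0.00494), and Ebp, with 29.3, 42.1 and 54.7 CPM against 32.1, 49.9 and 66.7 CPM (log2 change -0.22 ± 0.07, adjusted p = 0.0142). Elovl6 and Ebp were each lower at the plus level in 14 of 16 pairs, with overlapping groups. Pmvk, Fdps, Msmo1 and Scd1 also rose, by 0.15 to 0.33 on the log2 scale. RA plus populations had 15960 mean UMIs per cell and RA minus populations 17220, and with depth per cell as a covariate Elovl6 had an adjusted p of 0.113 and Ebp of 0.0815. All 3 tested neural markers rose with RA and 4 of 5 tested definitive endoderm and mesendoderm markers fell, and their part in the members' changes was not tested.

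With the GSK3 inhibitor against IWR1 the direction was mostly the other way: 2 members rose and 7 fell, where 12.1% of all genes rose and 11.9% fell. Of the 18 sterol genes 5 fell and 2 rose. Fdps had 53.0, 64.5 and 97.6 CPM as lowest, median and highest level in Wnt plus populations, against 53.2, 83.0 and 107.6 CPM in Wnt minus populations (log2 change -0.29 ± 0.07, adjusted p = 0.0016). Sqle had 55.9, 87.9 and 124.0 CPM at the plus level and 64.2, 106.9 and 137.0 CPM at the minus level (log2 change -0.23 ± 0.06, adjusted p = 0.00194). Fdft1 had 43.1, 56.3 and 80.8 CPM against 47.1, 69.5 and 93.4 CPM (log2 change -0.25 ± 0.06, adjusted p = 0.00339). Sqle and Fdft1 were each lower at the plus level in 14 of 16 matched pairs and Fdps in 12, and the groups overlapped for all 3. Hmgcs1 (-0.21 ± 0.07), Lss (-0.27 ± 0.10) and Acly (-0.22 ± 0.06 on the log2 scale) fell too.

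Insig1 fell with Wnt, to 16.0, 29.5 and 50.2 CPM at the plus level, against 28.9, 37.0 and 49.3 CPM at the minus level (log2 change -0.34 ± 0.09, adjusted p = 0.00591). The 2 members that rose act late in the path. Ebp had 35.8, 51.0 and 66.7 CPM at the plus level and 29.3, 38.02 and 65.1 CPM at the minus level (log2 change 0.27 ± 0.07, adjusted p = 0.00389). Hsd17b7, the keto-sterol reductase that works with Nsdhl and Msmo1, had 10.5, 15.1 and 26.7 CPM against 6.76, 11.4 and 17.5 CPM (log2 change 0.40 ± 0.11, adjusted p = 0.00654). Hsd17b7 was higher at the plus level in 14 of 16 pairs and Ebp in 12, again with overlap. The median over the members was -0.10, against -0.0004 over all genes. Of the companion genes, 4 transport genes rose with Wnt, among them Npc2, which hands cholesterol out of the lysosome (0.47 ± 0.04), and Vldlr, a lipoprotein receptor (0.54 ± 0.18), and 1 fell. Of the definitive endoderm and mesendoderm markers 2 of 5 rose, and 3 of 6 pluripotency and 2 of 3 neural markers fell; their part was not tested.

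Tgfb and Fgf called few members. With Activin A against A8301, 2 members were called, 1 up and 1 down, where 7.02% of all genes were called in either direction. Scd2 had 143.6, 225.1 and 289.0 CPM as lowest, median and highest level in Tgfb plus populations, against 108.0, 185.3 and 231.0 CPM in Tgfb minus populations (log2 change 0.31 ± 0.06, adjusted p = 0.000982). It was higher at the plus level in 16 of 16 matched pairs although the groups overlapped. Summed pluripotency markers averaged 1089 CPM at the Tgfb plus level and 617.8 CPM at the minus level, and 5 of 6 tested rose. Summed definitive endoderm and mesendoderm markers averaged 218.8 and 100.6 CPM, and 3 of 5 tested rose. The part of these markers in the Scd2 change was not tested. Stard4 had 25.8, 38.9 and 44.9 CPM against 28.7, 39.0 and 57.9 CPM (log2 change -0.18 ± 0.05, adjusted p = 0.0193), with 14 of 16 pairs lower at the plus level. The Stard4 call did not hold in 3 of 6 alternatives, with adjusted p of 0.0501 to 0.0571.

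With Fgf2 against UO126, 1 member rose and 0 fell, where 7.93% of all genes were called in either direction. That member was again Scd2, with 137.0, 219.4 and 289.0 CPM in Fgf plus populations, against 108.0, 192.0 and 271.0 CPM in Fgf minus populations (log2 change 0.22 ± 0.06, adjusted p = 0.0272). It was higher at the plus level in 14 of 16 pairs, and the groups overlapped. The fitted change was above 0 for 26 of 30 members, with a median of 0.08 against -0.0087 over all genes, and Sqle (0.15 ± 0.06, adjusted p = 0.0852) and Fasn (0.14 ± 0.05, adjusted p = 0.0991) came nearest to the threshold. With Fgf 2 of 6 pluripotency markers and 1 of 5 definitive endoderm and mesendoderm markers rose, and their part was not tested. Scd2 was thereby called with Bmp, Tgfb and Fgf, each time higher at the plus level. Its 3 highest populations, at 284.9 to 289.0 CPM, combined all of Bmp plus, Tgfb plus and Fgf plus, and its lowest, at 108.0 CPM, had the minus level of every signal.

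Whether 1 signal's effect depended on another was asked with the product terms of all 10 pairs of signals. Of 300 tests of a member and a pair, 5 were called, in 4 of the 10 pairs, where 1.42% of all gene and pair values were called. The 5 of 300 lie near that share, so the count is no result about the members, and the 5 are described singly. In Scd1 the Bmp effect depended on Tgfb. Scd1 averaged 31.2 ± 7.0 CPM with both at plus and 27.3 ± 4.2 CPM with Tgfb plus and Bmp minus, and 47.6 ± 12.4 CPM with Tgfb minus and Bmp plus and 23.9 ± 7.5 CPM with both at minus (SD, n = 8 populations each). The Bmp difference was thus wider at the Tgfb minus level, with an interaction of -0.76 ± 0.18 on the log2 scale (edgeR's quasi-likelihood test, adjusted p = 0.014). This held under each of 5 alternative analyses.

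In Fdps the RA and Wnt levels did not add. It averaged 67.8 ± 12.1 CPM with both at plus, 94.6 ± 10.2 CPM with RA plus and Wnt minus, 69.0 ± 13.7 CPM with RA minus and Wnt plus, and 71.8 ± 14.9 CPM with both at minus (SD, n = 8 each). The combination of RA plus and Wnt minus stood above the other 3, with an interaction of -0.40 ± 0.10 (adjusted p = 0.0198), and without the 5% of cells with most UMIs the adjusted p was 0.0769. Sc5d was lowest with RA and Bmp both at minus, at 24.2 ± 2.3 CPM, and averaged 34.9 ± 3.8 CPM with both at plus, 32.7 ± 6.5 CPM with RA plus and Bmp minus and 36.5 ± 5.7 CPM with RA minus and Bmp plus. Its interaction was -0.51 ± 0.13 (adjusted p = 0.0272, and 0.153 with DESeq2).

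Insig1 and Mvk had the same form for Wnt and Bmp. Insig1 averaged 38.0 ± 6.4 CPM with both at plus, 22.5 ± 4.9 CPM with Wnt plus and Bmp minus, 40.7 ± 6.3 CPM with Wnt minus and Bmp plus, and 36.1 ± 5.2 CPM with both at minus (interaction 0.56 ± 0.16, adjusted p = 0.0422). Mvk averaged 42.1 ± 5.9, 28.9 ± 2.6, 41.3 ± 6.4 and 37.1 ± 4.4 CPM in the same order of combinations (interaction 0.37 ± 0.11, adjusted p = 0.0455). Both genes were low in the populations with the GSK3 inhibitor and Dorsomorphin and close together in the rest. With DESeq2 neither call held (adjusted p = 0.0986 for Insig1 and 0.263 for Mvk), and Mvk also lost its call in 2 other alternatives.

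**Figure D3:**
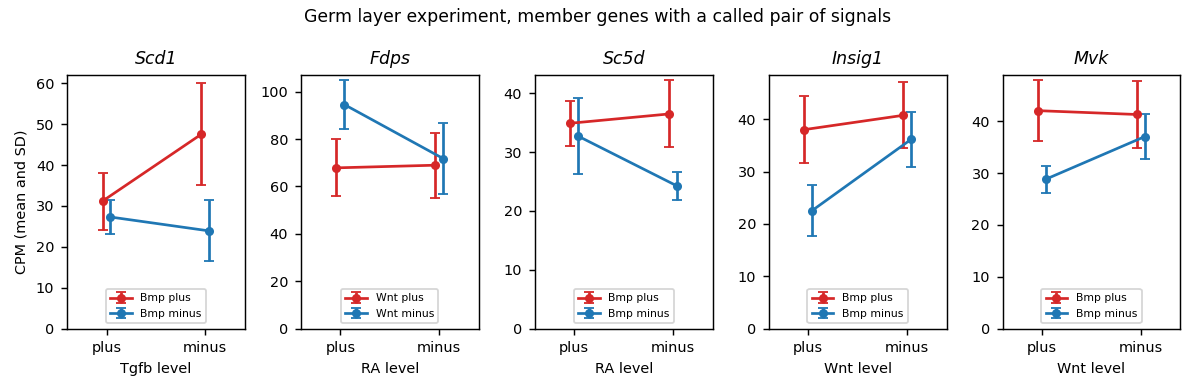
Mean level in CPM (points; bars show the SD, n = 8 populations each) of the 5 members with a called pair of signals in the germ layer experiment. The horizontal axis gives the level of the first signal, plus on the left, and each line a level of the second. Scd1 is at 47.6 CPM with Tgfb minus and Bmp plus, and Insig1 is at 22.5 CPM with Wnt plus and Bmp minus.

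The mesendoderm experiment asked the same of cells that had already been directed for 24 h. In single wells, which hold few cells, 7 members could be tested among 2328 genes. With Bmp, Hmgcs1 rose as the only one of the 7 (29.3% of genes called). It had 27.7, 121.9 and 298.4 CPM as lowest, median and highest level in 157 Bmp plus wells, against 13.4, 97.2 and 264.1 CPM in 143 Bmp minus wells (log2 change 0.28 ± 0.07, adjusted p = 0.000233). The wells overlapped over most of their range. With Tgfb, Scd2 rose as the only one (10.1% of genes called), with 145.7, 341.2 and 695.1 CPM in 108 plus wells, against 108.4, 295.3 and 594.9 CPM in 192 minus wells (log2 change 0.31 ± 0.05, adjusted p = 3.65e-08). The Tgfb difference in Scd2 thus had nearly the size seen in the germ layer populations.

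With Fgf 2 of the 7 rose and 0 fell (9.28% of genes called). Scd2 had 109.0, 333.7 and 695.1 CPM in 168 Fgf plus wells, against 108.4, 282.3 and 590.2 CPM in 132 Fgf minus wells (log2 change 0.28 ± 0.05, adjusted p = 2.62e-06). Hmgcs1 had 13.4, 117.6 and 280.4 CPM, against 17.8, 95.5 and 298.4 CPM (log2 change 0.22 ± 0.07, adjusted p = 0.018). The wells of both levels overlapped for each gene. With RA 2 of the 7 fell (21.9% of genes called): Hmgcs1, with 13.4, 97.9 and 280.4 CPM in 146 plus wells and 17.8, 115.3 and 298.4 CPM in 154 minus wells (log2 change -0.22 ± 0.07, adjusted p = 0.00725), and Sqle, with 0.0, 64.6 and 166.0 CPM against 9.73, 73.3 and 192.6 CPM (log2 change -0.24 ± 0.08, adjusted p = 0.0107).

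With Wnt 2 of the 7 fell (39.6% of genes called). Acat2 had 0.0, 90.1 and 200.2 CPM in 148 plus wells, against 13.8, 102.0 and 227.7 CPM in 152 minus wells (log2 change -0.19 ± 0.06, adjusted p = 0.00593), and Sqle had 0.0, 63.2 and 184.7 CPM, against 0.0, 74.7 and 192.6 CPM (log2 change -0.22 ± 0.08, adjusted p = 0.0145). Again the wells of both levels overlapped. Notch and Shh called 0 members, where 1.16% and 0.043% of genes were called. At an unadjusted p under 0.05, 0 of 7 members passed with Notch and 3 with Shh, and DESeq2 called 0 with either. The share of all genes with such a p is not given here, so these unadjusted counts are no result about the members. With wells of at least 10 cells only, Hmgcs1 with Bmp and Scd2 with Tgfb were still called, and the RA, Wnt and Fgf changes named here were not (adjusted p = 0.095 to 0.828). Of 252 tests of a member and a pair of signals 1 was called (0.822% of all gene and pair values). Msmo1 averaged 71.3 ± 34.5 CPM with Wnt and Bmp both at plus (80 wells), 57.1 ± 33.9 CPM with Wnt plus and Bmp minus (68 wells), 63.8 ± 31.6 CPM with Wnt minus and Bmp plus (77 wells) and 78.4 ± 46.2 CPM with both at minus (75 wells; interaction 0.62 ± 0.17, adjusted p = 0.00932). With wells of at least 10 cells only, the Msmo1 interaction was 0.15 with an adjusted p of 0.92.

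Cell type markers moved in the same mesendoderm contrasts. With Bmp, both tested lateral mesoderm markers and both surface ectoderm markers rose and 3 of 4 pluripotency markers fell. The lateral mesoderm markers summed to a median of 251.7 CPM at the Bmp plus level and 61.1 CPM at the minus level. With Wnt, 4 of 4 pluripotency markers and both surface ectoderm markers fell and both definitive endoderm and mesendoderm markers rose. The last 2 markers fell with RA and rose with Tgfb, and 1 of them rose with Fgf. The part of these shifts in the members' changes was not tested.

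To test more members, the wells of each of the 128 combinations were also summed, a choice made after the data had been seen, which let 19 members be tested among 4619 genes. With Bmp 5 members then rose and 0 fell (21.1% of genes called): Hmgcs1 (0.29 ± 0.06), Ebp (0.31 ± 0.08), Fdps (0.26 ± 0.09), Fdft1 (0.22 ± 0.08) and Stard4 (0.23 ± 0.09 on the log2 scale). The 5 of 19 members called lie near the share of all genes called, and 13 of the 19 tested belong to sterol synthesis or its regulation and transport, so the count is no result about the sterol genes. With Fgf 4 rose and 0 fell (5.22% called): Scd2 (0.31 ± 0.05), Scd1 (0.31 ± 0.10), Fasn (0.21 ± 0.07) and Hmgcs1 (0.21 ± 0.06). With Wnt 1 rose and 5 fell (33.0% called), Ebp being higher (0.24 ± 0.08) and Pmvk, Acly, Sqle, Acat2 and Stard4 lower (-0.28 to -0.17). With RA 3 fell and 0 rose (16.4% called), Hmgcs1, Sqle and Stard4, by -0.27 to -0.24. With Tgfb Scd2 rose as 1 of the 19 (7.38% called), and Notch and Shh again called 0 (0.693% and 0.0433% called). The 2 uncalled signals were not alike in direction. The median log2 change of the members was 0.14 with Shh, against -0.0017 over all genes. With Notch it was 0.02, against 0.0027 over all genes.

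The mixed experiment compared the signals from both starts within 1 library. At the mesendoderm start the members moved in 1 direction with Fgf: 13 of 28 tested members rose and 0 fell, where 7.12% of 8791 genes rose and 6.44% fell (32 wells at each level). Of the 17 sterol genes tested 10 rose, of the 4 regulation and transport genes 0, and of the 7 fatty acid genes 3. The fitted change was above 0 for 27 of the 28, with a median of 0.23 against -0.0056 over all genes.

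Scd2 had 156.3, 254.4 and 360.4 CPM as lowest, median and highest level in Fgf plus wells of the mesendoderm start, against 89.9, 180.5 and 277.1 CPM in Fgf minus wells (log2 change 0.55 ± 0.07, adjusted p = 1.03e-10). It was higher at the plus level in 32 of 32 pairs of wells that differed in Fgf alone, although the groups overlapped. Scd1 had 12.2, 31.5 and 54.9 CPM, against 5.54, 20.8 and 39.9 CPM (log2 change 0.61 ± 0.09, adjusted p = 1.82e-07), and was higher in 28 of 32 pairs. Both desaturases therefore rose with Fgf, and the wells of the 2 levels overlapped for both.

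Hmgcs1 had 42.0, 67.3 and 97.3 CPM in Fgf plus wells, against 21.2, 49.3 and 80.5 CPM in Fgf minus wells (log2 change 0.39 ± 0.08, adjusted p = 5.34e-05). Cyp51, which had not passed the test with Bmp in the germ layer populations, had 18.7, 32.9 and 53.6 CPM, against 14.6, 21.3 and 43.3 CPM (log2 change 0.46 ± 0.09, adjusted p = 0.000112). Sqle had 27.3, 57.4 and 71.3 CPM, against 10.6, 46.3 and 60.0 CPM (log2 change 0.32 ± 0.08, adjusted p = 0.00194). Hmgcs1 was higher at the plus level in 29, Sqle in 28 and Cyp51 in 26 of 32 pairs, with overlapping groups. Msmo1 had 28.5, 37.6 and 67.7 CPM, against 15.7, 31.7 and 57.2 CPM (log2 change 0.37 ± 0.09, adjusted p = 0.00209), and was higher in 23 of 32 pairs. The other members that rose were Nsdhl, Pmvk, Fasn, Sc5d, Idi1, Lss and Dhcr7, by 0.20 to 0.49 on the log2 scale.

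Of the companion genes at this start, 4 of 12 further fatty acid genes rose with Fgf and 0 fell, and 2 of 9 oxidation genes fell and 0 rose. Cpt1a, which lets fatty acids into mitochondria for oxidation, fell by 0.88 ± 0.19, and Slc25a20, the carrier next to it, by 0.54 ± 0.13. Lrp8, a lipoprotein receptor of the uptake, transport and efflux list, rose by 0.85 ± 0.15, and the other genes of that list are not given here. Fgf plus wells held 1606 cells and 22740 mean UMIs per cell, against 1093 cells and 20570 UMIs per cell in Fgf minus wells. With depth per cell as a covariate 10 members were called, and without the 5% of cells with most UMIs 9. The share of all genes called in those fits is not given here. Of the markers, 5 of 7 for pluripotent cells fell with Fgf, and 2 of 4 for definitive endoderm and mesendoderm and 2 of 4 for surface ectoderm rose. Their part in the members' change was not tested.

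At the undirected start Fgf called 1 member, Elovl6, which fell (13.3% of genes called in either direction). Elovl6 had 44.0, 101.3 and 157.0 CPM in 32 Fgf plus wells, against 54.7, 114.8 and 226.3 CPM in 30 Fgf minus wells (log2 change -0.24 ± 0.07, adjusted p = 0.0141), with overlap, and with wells of at least 10 cells only its adjusted p was 0.0985. Scd2 there had 43.9, 121.7 and 252.4 CPM in Fgf plus wells, against 35.2, 109.0 and 177.8 CPM in Fgf minus wells (log2 change 0.09 ± 0.09, adjusted p = 0.585). The difference between the starts was tested for every signal. For Fgf it was called in 1 of 28 members (1.47% of genes called), Scd2, whose Fgf effect was larger at the mesendoderm than at the undirected start by 0.46 ± 0.11 (adjusted p = 0.0137). The Fgf effect of Scd2 at the undirected start is an average over RA levels at which it went in opposite directions. Its means in Fgf plus and Fgf minus wells there were 151.1 and 103.2 CPM at RA plus, and 99.6 and 119.1 CPM at RA minus. Without the 5% of cells with most UMIs the difference between the starts in Scd2 was 0.41 with an adjusted p of 0.0875. Hmgcs1 had a difference of 0.28 ± 0.13 (adjusted p = 0.278) and Scd1 of 0.38 ± 0.17 (adjusted p = 0.267), so for these 2 genes singly a difference by start did not pass the test. Over the members, 9 of 28 had an unadjusted p under 0.05. The share of all genes with such a p is not given here, so that count is no result about the members. The fitted Fgf effect was larger at the mesendoderm start for 26 of 28, with a median difference of 0.20 against -0.0036 over all genes.

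**Figure D4:**
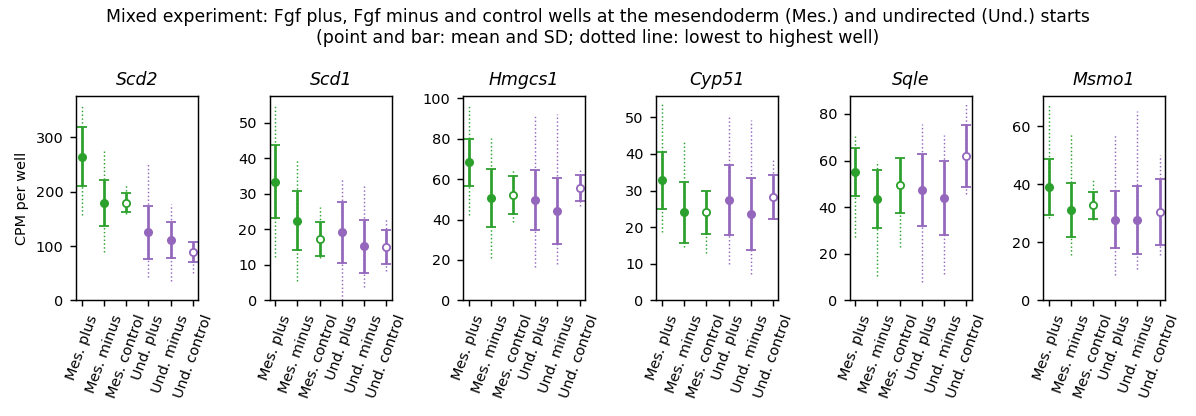
Levels in CPM of 6 members in the mixed experiment for Fgf plus, Fgf minus and control wells at the mesendoderm start and then at the undirected start. Points and bars show the mean and SD over wells, dotted lines the lowest to highest well. Scd2 averages 264.6 CPM in Fgf plus wells of the mesendoderm start, above the 179.2 CPM of its Fgf minus wells and the 180.0 CPM of its control wells.

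Other signals were split across the members at both starts. At the mesendoderm start 9 members rose and 4 fell with Wnt (19.9% of genes rose and 21.2% fell). Hsd17b7 had 0.0, 13.2 and 29.5 CPM as lowest, median and highest level in Wnt plus wells, against 1.86, 8.64 and 24.8 CPM in Wnt minus wells (log2 change 0.68 ± 0.14, adjusted p = 2.19e-05). Ebp had 11.6, 27.1 and 55.0 CPM, against 7.5, 21.5 and 33.5 CPM (log2 change 0.43 ± 0.10, adjusted p = 9.31e-05). Nsdhl, the sterol dehydrogenase next to Hsd17b7 in the path, had 3.85, 17.1 and 26.8 CPM, against 1.43, 12.1 and 19.5 CPM (log2 change 0.46 ± 0.12, adjusted p = 0.0013). Hsd17b7 and Ebp had also risen with Wnt in the germ layer populations.

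Of the fatty acid members at that start, Elovl6 had 87.0, 119.6 and 185.4 CPM in Wnt plus wells, against 71.2, 99.8 and 127.2 CPM in Wnt minus wells (log2 change 0.27 ± 0.06, adjusted p = 8.2e-05), and was higher in 30 of 32 pairs. Fads1 had 16.6, 31.9 and 45.5 CPM, against 11.9, 24.5 and 45.0 CPM (log2 change 0.35 ± 0.10, adjusted p = 0.00168). Acly fell, with 31.7, 59.9 and 85.7 CPM against 37.6, 77.8 and 114.0 CPM (log2 change -0.30 ± 0.06, adjusted p = 4.24e-05), and was lower in 26 of 32 pairs. Mvk, Fasn, Scd2 and Acaca rose as well, by 0.21 to 0.25, and Pmvk, Sqle and Fdft1 fell by 0.30, 0.23 and 0.21 on the log2 scale. The groups overlapped for each of these genes.

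With Wnt 6 members rose and 4 fell at the undirected start (16.7% of genes rose and 19.4% fell). Ebp had 6.59, 23.0 and 55.7 CPM in 30 Wnt plus wells, against 4.39, 13.96 and 32.3 CPM in 32 Wnt minus wells (log2 change 0.73 ± 0.14, adjusted p = 6.59e-06). Elovl6 had 44.0, 115.8 and 226.3 CPM, against 54.7, 98.3 and 162.1 CPM (log2 change 0.30 ± 0.07, adjusted p = 0.000496). Acat2 had 26.0, 44.5 and 95.1 CPM, against 30.8, 38.9 and 58.5 CPM (log2 change 0.31 ± 0.09, adjusted p = 0.00312). Mvd (0.39 ± 0.13), Cyp51 (0.32 ± 0.12) and Fasn (0.21 ± 0.08 on the log2 scale) also rose. Ebp was thus higher at the Wnt plus level at both starts and in the germ layer experiment, with overlapping wells.

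The members that fell with Wnt at the undirected start included Sqle, Acly and Lss. Sqle had 7.96, 36.4 and 66.9 CPM in Wnt plus wells, against 26.4, 52.9 and 75.5 CPM in Wnt minus wells (log2 change -0.41 ± 0.11, adjusted p = 0.000836). Acly had 46.0, 75.0 and 120.5 CPM, against 40.5, 88.4 and 124.1 CPM (log2 change -0.29 ± 0.08, adjusted p = 0.00099). Lss had 0.0, 7.67 and 26.8 CPM, against 0.0, 13.4 and 27.5 CPM (log2 change -0.56 ± 0.19, adjusted p = 0.0115). Pmvk also fell, by 0.33 ± 0.12. All of these groups overlapped. Wnt plus wells of this start held 454 cells in all, against 968 cells in Wnt minus wells, with 22480 and 20700 mean UMIs per cell. With Wnt 6 of 7 pluripotency and 3 of 4 surface ectoderm markers fell at the mesendoderm start, and all 4 surface ectoderm markers fell at the undirected start. At each start 3 of 4 definitive endoderm and mesendoderm markers rose, and the part of these shifts was not tested. Sqle fell with Wnt in the germ layer populations, in single mesendoderm wells and at both starts of the mixed experiment.

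The Wnt effect differed between the starts in 2 of 28 members (7.77% of genes called). Acat2 had a Wnt effect of -0.08 ± 0.07 at the mesendoderm start and 0.31 ± 0.09 at the undirected start, a difference of -0.39 ± 0.11 (adjusted p = 0.0157). Scd1 had 0.21 ± 0.09 at the mesendoderm start and -0.30 ± 0.15 at the undirected start, a difference of 0.51 ± 0.17 (adjusted p = 0.0467). The Scd1 difference lost its call in 4 of 7 alternatives (adjusted p = 0.0523 to 0.148), and the Acat2 difference in 1, without the filter on low counts (adjusted p = 0.0806).

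With RA 5 members rose and 2 fell at the mesendoderm start (14.4% of genes rose and 15.6% fell). Fads1 had 16.9, 34.9 and 45.5 CPM as lowest, median and highest level in RA plus wells, against 11.9, 22.6 and 45.0 CPM in RA minus wells (log2 change 0.49 ± 0.10, adjusted p = 1.53e-05). Scd1 had 14.3, 31.4 and 54.9 CPM, against 5.54, 25.8 and 39.0 CPM (log2 change 0.46 ± 0.09, adjusted p = 1.76e-05). Acaca had 10.1, 26.0 and 52.0 CPM, against 11.95, 19.3 and 32.4 CPM (log2 change 0.44 ± 0.09, adjusted p = 2.72e-05). These 3 fatty acid genes had also risen with RA in the germ layer populations, and their wells overlapped here as there.

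Mvd had 17.2, 23.6 and 35.2 CPM in RA plus wells of the mesendoderm start, against 7.53, 20.5 and 33.6 CPM in RA minus wells (log2 change 0.29 ± 0.10, adjusted p = 0.0142), and Sc5d rose by 0.30 ± 0.11. The members that fell were Acly, with 31.7, 60.7 and 94.3 CPM against 44.7, 75.8 and 114.0 CPM (log2 change -0.29 ± 0.06, adjusted p = 0.000139), and Hsd17b7, with 0.0, 9.23 and 18.3 CPM against 3.6, 11.6 and 29.5 CPM (log2 change -0.53 ± 0.14, adjusted p = 0.00155). Acly was lower at the plus level in 26 and Hsd17b7 in 24 of 32 pairs, with overlap.

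At the undirected start 7 members rose with RA and 1 fell (16.9% of genes rose and 17.5% fell). Scd1 had 5.95, 22.1 and 34.5 CPM in 30 RA plus wells, against 0.0, 11.0 and 29.3 CPM in 32 RA minus wells (log2 change 0.75 ± 0.14, adjusted p = 5.45e-06), and was higher in 25 of 30 pairs. Fads1 had 8.92, 30.5 and 50.6 CPM, against 0.0, 18.1 and 40.6 CPM (log2 change 0.69 ± 0.13, adjusted p = 1.09e-05). Acaca had 8.92, 24.4 and 47.3 CPM, against 8.85, 18.8 and 37.9 CPM (log2 change 0.42 ± 0.12, adjusted p = 0.00226). Acaca, Fads1 and Scd1 were therefore called higher at the RA plus level in the germ layer experiment and at both starts, each time with overlapping groups. In summed mesendoderm wells Fads1 (0.22 ± 0.09, adjusted p = 0.0809) and Scd1 (0.22 ± 0.10, adjusted p = 0.112) were not called with RA, and Acaca was not tested. In the second set of mixed wells alone the mesendoderm start calls were lost (adjusted p = 0.067 for Fads1, 0.322 for Scd1 and 0.138 for Acaca).

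Insig1 had 7.13, 21.8 and 47.8 CPM in RA plus wells of the undirected start, against 0.0, 15.6 and 38.4 CPM in RA minus wells (log2 change 0.53 ± 0.15, adjusted p = 0.00428). Scd2 had 35.2, 130.4 and 252.4 CPM, against 43.9, 105.7 and 199.0 CPM (log2 change 0.29 ± 0.09, adjusted p = 0.00896). Fdps had 17.8, 29.7 and 70.2 CPM, against 0.0, 25.8 and 46.9 CPM (log2 change 0.36 ± 0.11, adjusted p = 0.00967). With pairwise terms in the model Scd2 and Fdps were not called (adjusted p = 0.281 and 0.127). Sc5d rose as well, by 0.45 ± 0.17. Acly fell again, with 40.5, 78.5 and 119.4 CPM against 60.8, 86.3 and 124.1 CPM (log2 change -0.20 ± 0.07, adjusted p = 0.0295; 0.0542 to 0.0708 in 3 alternatives). With RA 4 of 7 pluripotency markers fell at the mesendoderm start and 6 at the undirected start, as did 2 and 4 of the 4 definitive endoderm and mesendoderm markers, and their part was not tested. No member's RA effect was called different between the starts (0 of 28, where 5.68% of genes were called), and DESeq2 called 1. An unadjusted p under 0.05 was found for 6 members. The share of all genes with such a p is not given here, so that count is no result about the members.

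With Tgfb, Scd2 rose at both starts as the only member called. At the mesendoderm start (6.96% of genes called) Scd2 had 120.1, 248.5 and 360.4 CPM in Tgfb plus wells, against 89.9, 196.0 and 315.9 CPM in Tgfb minus wells (log2 change 0.33 ± 0.07, adjusted p = 0.0002). At the undirected start (4.14% of genes called) it had 53.5, 126.0 and 252.4 CPM in 32 plus wells, against 35.2, 101.5 and 163.9 CPM in 30 minus wells (log2 change 0.31 ± 0.09, adjusted p = 0.0232). Scd2 was higher at the plus level in 28 of 32 pairs of the mesendoderm start and 25 of 30 of the undirected start. With the other 2 experiments this made 4 comparisons in which Tgfb called Scd2 higher, at 0.31 to 0.33 on the log2 scale. With Tgfb 7 of 7 pluripotency markers rose at the mesendoderm start and 5 at the undirected start, and 3 of 4 definitive endoderm and mesendoderm markers at each, and their part was not tested. No Tgfb effect was called different between starts (0 of 28 members, and 0.0% of genes called), and DESeq2 called 0. An unadjusted p under 0.05 was found for 0 members, and the share of all genes with such a p is not given here.

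Bmp called few members in the mixed experiment. At the mesendoderm start 2 rose and 0 fell (10.7% of genes called). Acaca had 10.6, 25.3 and 52.0 CPM in Bmp plus wells, against 10.1, 21.7 and 31.9 CPM in Bmp minus wells (log2 change 0.30 ± 0.09, adjusted p = 0.0111), and Fdps had 15.7, 38.6 and 63.1 CPM, against 17.4, 33.5 and 48.5 CPM (log2 change 0.28 ± 0.08, adjusted p = 0.0175). Without the 5% of cells with most UMIs Fdps had an adjusted p of 0.0723. At the undirected start 1 rose and 0 fell (7.81% of genes called): Ebp, with 8.73, 19.0 and 55.7 CPM in 30 plus wells and 4.39, 16.8 and 49.1 CPM in 32 minus wells (log2 change 0.41 ± 0.14, adjusted p = 0.0474), which was not called with pairwise terms (0.0754) or without the filter (0.0797). The fitted change was above 0 for 22 of 28 members at the mesendoderm start and 21 of 28 at the undirected start. Hmgcs1, called with Bmp in both other experiments, had 0.15 ± 0.08 at the mesendoderm start (adjusted p = 0.197). With Bmp 3 of 4 surface ectoderm markers rose at the mesendoderm start and 4 at the undirected start, and their part was not tested. The Bmp effect was not called different between starts in any of the 28 (0.193% of genes called), and DESeq2 called 0. An unadjusted p under 0.05 was found for 1 member, and the share of all genes with such a p is not given here.

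Start state itself was compared next, between groups of wells of the same library and without pairing of wells. Among treated wells 9 members were higher at the mesendoderm start and 2 lower (14.2% of genes higher and 11.4% lower; 64 and 62 wells). Scd2 had 89.9, 220.2 and 360.4 CPM as lowest, median and highest level at the mesendoderm start, against 35.2, 114.1 and 252.4 CPM at the undirected start (log2 change 0.81 ± 0.06, adjusted p = 3.3e-26). Scd1 had 5.54, 27.4 and 54.9 CPM, against 0.0, 16.3 and 34.5 CPM (log2 change 0.63 ± 0.09, adjusted p = 2.45e-09). Both desaturases were higher at the mesendoderm start, with wells that overlapped.

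Hsd17b7 had 0.0, 10.0 and 29.5 CPM at the mesendoderm start, against 0.0, 6.03 and 27.4 CPM at the undirected start (log2 change 0.67 ± 0.13, adjusted p = 3.2e-05). Hmgcs1 had 21.2, 60.2 and 97.3 CPM, against 16.7, 47.9 and 92.3 CPM (log2 change 0.30 ± 0.06, adjusted p = 9.33e-05). Ebp had 7.5, 23.2 and 55.0 CPM, against 4.39, 17.8 and 55.7 CPM (log2 change 0.34 ± 0.08, adjusted p = 0.000826). Acly was lower, with 31.7, 68.7 and 114.0 CPM against 40.5, 82.6 and 124.1 CPM (log2 change -0.29 ± 0.05, adjusted p = 1.03e-06). Sc5d, Fdps, Msmo1 and Fads1 were also higher, by 0.21 to 0.41, and Pmvk lower, by -0.27 on the log2 scale, and every one of these groups overlapped.

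In control wells, which got no combination of signals, 2 members were higher at the mesendoderm start and 0 lower (8.57% of genes called; 8 wells each). Scd2 had 158.4, 183.3 and 212.0 CPM at the mesendoderm start, against 49.6, 92.4 and 109.4 CPM at the undirected start (log2 change 1.00 ± 0.15, adjusted p = 9.23e-08). Ebp had 16.7, 21.5 and 26.4 CPM, against 7.6, 11.1 and 13.0 CPM (log2 change 0.96 ± 0.23, adjusted p = 0.00123). The 8 wells of each start did not overlap for either gene. Treated wells of the mesendoderm start held more cells, on average 42.2 against 22.9 at the undirected start, with 21660 and 21560 mean UMIs per cell. Of the markers 3 of 4 for definitive endoderm and mesendoderm and 2 of 4 for surface ectoderm were higher at the mesendoderm start in treated wells, and their part was not tested.

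Treated wells as a whole were set against control wells within each start. At the mesendoderm start 2 members rose and 1 fell (7.0% of genes rose and 8.5% fell; 64 and 8 wells). Scd1 had 5.54, 27.4 and 54.9 CPM in treated wells, against 12.1, 16.3 and 26.3 CPM in control wells (log2 change 0.63 ± 0.14, adjusted p = 0.000301). Stard4 had 5.24, 26.3 and 42.7 CPM, against 14.7, 19.8 and 30.7 CPM (log2 change 0.39 ± 0.12, adjusted p = 0.018), and Elovl6 had 71.2, 105.9 and 185.4 CPM, against 101.4, 126.3 and 141.4 CPM (log2 change -0.22 ± 0.08, adjusted p = 0.0433). The control wells lay inside the range of the treated wells for all 3 genes. All 7 pluripotency markers were lower in treated wells of this start, and 4 of 7 at the undirected start, and their part was not tested. The Stard4 call was lost in 2 alternatives (adjusted p = 0.0509 and 0.0622) and the Elovl6 call in 3 (adjusted p = 0.055 to 0.0698).

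At the undirected start 3 members rose and 2 fell in treated against control wells (8.3% of genes rose and 11.0% fell; 62 and 8 wells). Ebp had 4.39, 17.8 and 55.7 CPM in treated wells, against 7.6, 11.1 and 13.0 CPM in control wells (log2 change 0.83 ± 0.20, adjusted p = 0.000834). Scd2 had 35.2, 114.1 and 252.4 CPM, against 49.6, 92.4 and 109.4 CPM (log2 change 0.45 ± 0.13, adjusted p = 0.00497). Fads1 had 0.0, 23.8 and 50.6 CPM, against 9.65, 17.0 and 24.4 CPM (log2 change 0.51 ± 0.18, adjusted p = 0.0314; 0.0576 and 0.0725 in 2 alternatives). The 3 genes that rose thus spanned the late sterol path and both kinds of desaturase.

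Idi1 and Sqle fell in treated wells of the undirected start. Idi1 had 11.0, 40.6 and 64.9 CPM in treated wells, against 37.7, 53.7 and 76.4 CPM in control wells (log2 change -0.50 ± 0.12, adjusted p = 0.00135). Sqle had 7.96, 48.0 and 75.5 CPM, against 45.7, 60.2 and 84.1 CPM (log2 change -0.42 ± 0.12, adjusted p = 0.00636). The highest control wells stood above every treated well for both. Treated and control wells of this start held on average 22.9 and 35.0 cells.

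Pairs of signals in the mixed experiment were called in 4 of 280 tests at the mesendoderm start (0.586% of all gene and pair values) and 4 of 280 at the undirected start (0.425%). At the mesendoderm start 3 sterol genes depended on Wnt with Bmp. Hmgcs1 averaged 66.8 ± 16.7 CPM with both at plus, 51.2 ± 15.0 CPM with Wnt plus and Bmp minus, 57.4 ± 11.2 CPM with Wnt minus and Bmp plus, and 62.6 ± 16.2 CPM with both at minus (SD, n = 16 wells each; interaction 0.53 ± 0.14, edgeR's quasi-likelihood test, adjusted p = 0.0169). Hsd17b7 averaged 15.0 ± 7.1, 12.2 ± 4.1, 7.6 ± 5.5 and 10.5 ± 4.9 CPM in that order (interaction 1.07 ± 0.27, adjusted p = 0.0143). Idi1 averaged 44.2 ± 9.6, 37.0 ± 11.6, 37.4 ± 11.7 and 42.4 ± 9.2 CPM (interaction 0.51 ± 0.14, adjusted p = 0.0295; 0.0506 and 0.135 in 2 alternatives).

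In each of these 3 genes the mean was higher at Bmp plus than at Bmp minus where Wnt was plus, and lower where Wnt was minus. The Wnt and Bmp interactions called in the germ layer experiment (Insig1 and Mvk), in mesendoderm wells (Msmo1) and here were all positive. They are only those that passed the threshold, and the genes differed between experiments. At the undirected start 0 of 28 members were called for this pair. The Msmo1 call was lost with wells of at least 10 cells, and those of Insig1, Mvk and Idi1 in at least 1 alternative. In the second set of wells alone edgeR called none of the 3 genes here (adjusted p = 0.833 to 0.928). The remaining call at the mesendoderm start was Msmo1 for RA with Wnt, with 30.4 ± 5.3 CPM at both plus, 37.2 ± 9.0 CPM at RA plus and Wnt minus, 39.5 ± 13.8 CPM at RA minus and Wnt plus and 33.1 ± 9.4 CPM at both minus (interaction -0.60 ± 0.17, adjusted p = 0.031).

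At the undirected start Scd2 depended on RA with Fgf. It averaged 151.1 ± 42.0 CPM with both at plus (16 wells), 103.2 ± 35.6 CPM with RA plus and Fgf minus (14 wells), 99.6 ± 42.0 CPM with RA minus and Fgf plus and 119.1 ± 30.0 CPM with both at minus (16 wells each). The interaction was 0.86 ± 0.16 (adjusted p = 0.00156), so the Fgf difference at this start went in opposite directions at the RA levels. For RA with Bmp, Scd2 averaged 121.5 ± 56.0 CPM with both at plus, 135.1 ± 34.6 CPM with RA plus and Bmp minus, 121.4 ± 37.9 CPM with RA minus and Bmp plus and 97.3 ± 33.5 CPM with both at minus (interaction -0.65 ± 0.16, adjusted p = 0.0375; 0.0581 to 0.0802 in 3 alternatives). For RA with Wnt, Idi1 averaged 43.2 ± 12.8 CPM with both at plus, 33.4 ± 9.2 CPM with RA plus and Wnt minus, 35.4 ± 12.01 CPM with RA minus and Wnt plus and 47.0 ± 7.0 CPM with both at minus (interaction 0.91 ± 0.20, adjusted p = 0.0021). Ebp averaged 20.0 ± 6.5, 17.3 ± 5.0, 28.8 ± 12.6 and 12.2 ± 7.3 CPM in the same order (interaction -0.95 ± 0.28, adjusted p = 0.0369), a call lost in 4 of 6 alternatives.

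The wells of each start form 2 sets marked by a separate barcodelet, each with 32 combinations and 4 controls, and each set was also fitted alone, which was decided after the data had been seen. All 64 values of the mixed experiment that are given in full had the same sign in both sets. Of these, 37 were called in the first set alone and 25 in the second set alone. The Fgf change of Scd2 at the mesendoderm start was 0.48 in the first set (adjusted p = 0.000298) and 0.65 in the second (adjusted p = 5.26e-07). That of Msmo1 was 0.59 (adjusted p = 0.000571) and 0.08 (adjusted p = 0.845), so its call rested on the first set, and that of Hmgcs1 was 0.24 (adjusted p = 0.159) and 0.60 (adjusted p = 0.000198). The Scd2 difference of Fgf effects between starts was 0.45 and 0.50 in the sets, with adjusted p of 0.331 and 0.172.

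Transfection of the barcodelets, which every single-cell population had received, was looked at in the bulk libraries, which held 2899646 to 5134534 reads each. In these, 0 of 30 tested members were called at 24 h and 0 at 72 h against untransfected cells (0.0344% and 0.0258% of 11631 genes called). At an unadjusted p under 0.05, 0 members passed at 24 h and 2 at 72 h, and DESeq2 called 0 at both times. The share of all genes with such a p is not given here, so these unadjusted counts are no result about the members. Hmgcs1 had 214.2 and 210.9 CPM at 24 h and 197.6 and 182.0 CPM at 72 h, against 210.3 and 204.9 CPM in untransfected cells. Sqle had 43.4 and 36.5 CPM at 24 h and 40.0 and 35.8 CPM at 72 h, against 46.6 and 47.1 CPM. Scd2 had 102.6 and 105.1 CPM at 24 h and 88.5 and 126.0 CPM at 72 h, against 125.2 and 81.6 CPM. The untransfected pair spanned the 24 h values, and 1 of the 72 h values lay above it.

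The 2 members with an unadjusted p under 0.05 at 72 h were Acat2 and Acss2. Acat2 had 87.0 and 86.0 CPM at 72 h, against 133.1 and 110.2 CPM in untransfected cells (log2 change -0.49 ± 0.20, edgeR's quasi-likelihood test, adjusted p = 0.905). Acss2 had 2.78 and 2.35 CPM, against 5.22 and 5.79 CPM (log2 change -1.09 ± 0.47, adjusted p = 0.905). The SE of Hmgcs1 at 24 h was 0.20 on the log2 scale, so differences of the size seen between signals in the germ layer populations could not be resolved with 2 libraries a group.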

How the data were processed

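The authors deposited raw counts: UMI counts per gene and cell for 3 single-cell experiments, and read counts per gene from 3′-end bulk libraries. Per the submitters' processing notes, Cell Ranger 1.3.1, STAR 2.5.2b, HTSeq 0.9.1 and the mm10 build were used. The sources used here do not state how strand entered the counting. The deposited assignment of cells to populations was used, and counts of cells that passed it were summed per population (at least 5 cells). Doublets were not called again. Of the bulk table, 6 libraries were used and 7 columns were not.

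Sums were tested with edgeR 4.0.16 (R 4.3.3) by the quasi-likelihood test, with TMM scaling and edgeR's filter on low counts, two-sided, and adjusted over all genes tested by the Benjamini-Hochberg method. A call is an adjusted p under 0.05. Signals were coded 0.5 for plus and -0.5 for minus. In pair models an interaction is the effect of the first signal where the second is plus, less that where it is minus. SEs were derived from the fold change and its F statistic. The same steps were tested on simulated data. Population numbers of a group count populations or wells of 1 library, and their p-values measure only the spread between these. In each comparison up to 6 called members with the smallest adjusted p, plus the best member of the opposite direction, are given with full values. DESeq2 1.42.0, its size factors, no filter, at least 10 cells per population, depth per cell as a covariate, leaving out the cells with most UMIs, pairwise products in the model, and, added after the data were seen, each set of mixed wells alone and mesendoderm wells summed per combination, with, for bulk, each library left out and a replicate block, were the alternatives. The members and all gene lists were chosen with earlier results of these data known.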

Additional observations from a re-analysis of the deposited data

Results flagged for a closer look

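In 2 of 56 groups of 8 control wells, 1 well stood apart from the other 7 for a member, and chance alone gives this in about 5 percent of groups. For Sqle at the mesendoderm start the lowest control well had 22.77 CPM, where the next lowest had 45.9 CPM and the highest 59.7 CPM. For Stard4 at the same start the highest control well had 30.71 CPM, where the next had 22.2 CPM.

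For 3 members the effect of a signal differed between the mesendoderm and undirected starts by edgeR's test of the difference itself. The Wnt effect of Acat2 differed by -0.3918 on the log2 scale (adjusted p = 0.0157), being -0.08 at the mesendoderm start and 0.31 at the undirected start. The Wnt effect of Scd1 differed by 0.5109 (adjusted p = 0.0467), being 0.21 at the mesendoderm start and -0.30 at the undirected start. The Fgf effect of Scd2 differed by 0.4633 (adjusted p = 0.0137), being 0.55 at the mesendoderm start and 0.09 at the undirected start. That undirected value averages over RA levels at which the Fgf difference of Scd2 went in opposite directions. None of the 3 was called in either set of wells alone.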

How the results depend on the processing

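The 99 changes given in full are up to 6 called members per comparison, the best member of the opposite direction, and the called pairs. None of these 99 turned its direction. Of them, 70 were called under every alternative (the sets of wells aside) and 29 were not under at least 1. Other changes named in the text were not among the 99. The number of members tested also differed between fits. For the mesendoderm signal effects it was 7 as reported, 14 with wells of at least 10 cells and 31 without the filter. It was 12 with pairwise products, 6 without the 5% of cells with most UMIs and 19 with wells summed. Summed wells aside, the share of all genes called in these fits is not given here, so a moved count is no result about the members. Counts of called members that moved by over 1.5 times were these, and the cause was not tested. With wells of at least 10 cells, the mesendoderm effects gave 3 calls (8 as reported), with 1 for RA, 0 for Wnt and 0 for Fgf, its pairs gave 0 calls (1 as reported), Fgf at the undirected start gave 0, the Wnt difference between starts 1 and the undirected pairs 2. Without the filter on low counts, which tests more genes, the mesendoderm effects gave 15 calls, with 5 for Wnt, 2 for Bmp and 4 for Fgf, the germ layer Tgfb effect 1, the undirected Bmp effect 0, and the RA and Wnt differences between starts 1 each. With mesendoderm wells summed there were 19 calls, with 6 for Wnt, 5 for Bmp and 4 for Fgf. With pairwise products in the model the calls were 4 for germ layer Tgfb, 2 for germ layer Fgf, 1 for mesendoderm RA, 4 for mesendoderm Wnt, 4 for Bmp at the mesendoderm start, 5 for RA, 0 for Bmp and 2 for Fgf at the undirected start, and 5 for treated against control wells at the mesendoderm start. Without the 5% of cells with most UMIs the calls were 1 for mesendoderm Fgf, 1 for Bmp at the mesendoderm start, 1 for the RA, 1 for the Wnt and 0 for the Fgf difference between starts, 5 for treated against control wells (8 as reported; 1 at the mesendoderm start), and 5 for mixed pairs (8 as reported; 2 at the undirected start). With depth per cell as a covariate, germ layer Tgfb gave 1 call and the Wnt difference between starts 1. With DESeq2 the germ layer pairs gave 2 calls (5 as reported), and the RA and Wnt differences between starts 1 each; with its size factors the RA difference gave 1. Fits of 1 set of wells, with fewer wells, gave for the first and second set 37 and 20 signal effects (57 as reported), 0 and 0 differences between starts (3 as reported), 4 and 3 treated against control calls and 3 and 0 pairs, and 8 start state calls in the first set (13 as reported).

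In the bulk libraries the replicate numbers did not pair the samples (correlations of deviations of -0.0797, -0.157 and 0.109), and with a replicate block 0 members were called, as without it. Leaving out each library in turn gave 0 to 0 calls. Mesendoderm wells held a median of 101097 UMIs, so that 24 of the 31 members could not be tested there in single wells.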
